A study of Homo sapiens with 24 samples.

Results

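The SLC25 family, the mitochondrial carriers, was described across HCT116 cells and their oxaliplatin-resistant derivative HCT116 oxpl-R. Its members were taken as all genes whose symbol is SLC25A followed by a number, which gave 48 of the 37967 genes in the table used here. Of these 48 genes, 43 were expressed, with a mean of at least 10 estimated counts over the 24 samples. The 5 others were SLC25A2, SLC25A18, SLC25A31, SLC25A47 and SLC25A52, and none of them passed 0.26 CPM (the estimated counts of a gene scaled to a fixed library total) in any sample. The uncoupling proteins UCP1 to UCP3 belong to the same protein family but carry other symbols and were not counted as members.

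Mitochondrial carriers are small proteins of the inner mitochondrial membrane that exchange metabolites between the mitochondrial matrix and the cytosol. They move ADP for ATP, phosphate, citrate, malate, amino acids, acylcarnitines, coenzyme A, nucleotides, iron and glutathione, and thereby set which fuels and building blocks reach the enzymes of the matrix. They are made in the cytosol and enter the inner membrane with the help of the small TIM proteins and the TIM22 complex. SLC25A17 lies in peroxisomes and SLC25A46 in the mitochondrial outer membrane.

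HCT116 is a human colorectal carcinoma cell line, and HCT116 oxpl-R was derived from it by repeated pulses of oxaliplatin, a platinum drug that damages DNA. HCT116 oxpl-R is a selected and heterogeneous population, described as hypotetraploid from the study's chromosome analysis, and it was compared as a single derivative without an independently selected sister line. Both lines, the untreated controls included, carry a doxycycline-inducible adenovirus E1A gene (TetOn-E1A). In each line, cells were left untreated (control), exposed to 25 µM oxaliplatin for 24 h (oxaliplatin), given 0.5 µg/mL doxycycline (E1A), or given doxycycline 3 h before the same oxaliplatin exposure (E1A + oxaliplatin). These 8 groups had 3 samples each, which the labels call biological replicates without naming separate cultures, so the p-values measure the spread between these samples. No group received doxycycline without carrying the E1A gene, so an effect of doxycycline itself and an effect of E1A cannot be told apart.

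Estimated counts per sample totalled 28004261 to 42613322, with a median of 33242211. All 7 colorectal epithelial markers, EPCAM, KRT8 and CDX2 among them, were expressed, with a summed level of 5001 to 13224 CPM, while 3 of 4 immune, 3 of 4 fibroblast and all 3 endothelial markers had medians below 1 CPM, and the summed fibroblast list, mostly COL1A1 and COL1A2, reached 49 CPM at most. Oxaliplatin raised 11 of 14 listed p53 targets in HCT116 and 13 of 14 in HCT116 oxpl-R, where 11.8% and 2.04% of tested genes rose. The E1A transcript is not human and was not measured in the table, and doxycycline alone moved 0 of 15 listed E2F targets past the test in either line, with 5 in HCT116 and 2 in HCT116 oxpl-R at an unadjusted p below 0.05. Of all tested genes, doxycycline alone moved 5.22% in HCT116 and 0.0593% in HCT116 oxpl-R. E1A + oxaliplatin against oxaliplatin raised 10 of the 15 E2F targets in HCT116 oxpl-R and none in HCT116, where 1 had an unadjusted p below 0.05. Over all tested genes it raised 0.598% in HCT116 oxpl-R and 0.0209% in HCT116. By the correlation of log2 levels, 10 of 24 samples were nearest to a sample of another group. Among them were HCT116 E1A replicate 3, nearest to a control, HCT116 oxpl-R control replicate 3, nearest to an E1A sample, all 3 HCT116 oxpl-R E1A samples, nearest to controls, and all 3 HCT116 oxpl-R oxaliplatin samples, nearest to E1A + oxaliplatin replicate 2. The others were HCT116 oxaliplatin replicate 3 and HCT116 E1A + oxaliplatin replicate 1, nearest to each other with r = 0.9825, where correlations within their own groups went down to 0.9624 and 0.9601. Counts of members called are also given without these last samples.

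Differences were tested with edgeR's quasi-likelihood test with Benjamini-Hochberg adjustment over all genes, and "higher", "lower", "rose" and "fell" are used for an adjusted p below 0.05. CPM are scaled by edgeR's TMM factors over the 24 samples, and a log2FC is the fitted difference on the log2 scale. Its error is a standard error (SE) derived from the test, the absolute log2FC divided by the square root of the test's F statistic. In RNA from whole dishes, fewer cells carrying a transcript and less transcript per cell cannot be told apart. CPM are also shares of a library and not amounts per cell. A lower CPM in HCT116 oxpl-R, described as hypotetraploid, therefore need not mean less transcript per cell.

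The results turn first on 5 carriers that differed between the lines in every condition, and the 250 bases before their transcription starts are shown because these are the members called in all 4 comparisons, SLC25A20 and SLC25A26 as higher and SLC25A1, SLC25A11 and SLC25A22 as lower in HCT116 oxpl-R. The sequences are from RefSeq on GRCh38.p14, each at the start that coincides with the canonical GENCODE transcript, written 5′ to 3′ along the gene's own strand. Capitals mark matches on either strand to motifs of promoters, and neighbouring matches can overlap. A GC box was searched as GGGCGG and a CCAAT box by those letters. The E-box was taken as CACGTG, a site of MYC and related factors. For NRF1, a regulator of mitochondrial genes, the core GCGCATGCG was used. The motif of estrogen-related receptors was AAGGTCA.
SLC25A20, chr3:48898883-48899132, minus strand: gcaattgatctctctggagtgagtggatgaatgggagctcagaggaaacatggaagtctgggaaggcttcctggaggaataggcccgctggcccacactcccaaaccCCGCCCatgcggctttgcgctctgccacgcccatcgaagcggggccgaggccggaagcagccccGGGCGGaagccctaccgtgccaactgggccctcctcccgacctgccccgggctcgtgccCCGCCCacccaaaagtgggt
SLC25A26, chr3:66220751-66221000, plus strand: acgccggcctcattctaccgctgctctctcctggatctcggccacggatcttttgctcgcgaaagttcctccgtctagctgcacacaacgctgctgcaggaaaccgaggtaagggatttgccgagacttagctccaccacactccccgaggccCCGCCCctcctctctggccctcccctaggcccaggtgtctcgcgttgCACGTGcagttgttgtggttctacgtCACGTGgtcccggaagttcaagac
SLC25A1, chr22:19178737-19178986, minus strand: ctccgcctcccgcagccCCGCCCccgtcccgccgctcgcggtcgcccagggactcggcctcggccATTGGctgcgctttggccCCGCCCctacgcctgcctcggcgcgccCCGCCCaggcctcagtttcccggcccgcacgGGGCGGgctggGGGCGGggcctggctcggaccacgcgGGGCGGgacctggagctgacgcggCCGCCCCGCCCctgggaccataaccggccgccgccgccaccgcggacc
SLC25A11, chr17:4940047-4940296, minus strand: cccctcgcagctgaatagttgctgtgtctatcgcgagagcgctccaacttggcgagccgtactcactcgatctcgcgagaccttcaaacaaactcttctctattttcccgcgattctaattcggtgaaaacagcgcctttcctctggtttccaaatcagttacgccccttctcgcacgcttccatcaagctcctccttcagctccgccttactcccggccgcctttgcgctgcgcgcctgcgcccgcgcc
SLC25A22, chr11:798282-798531, minus strand: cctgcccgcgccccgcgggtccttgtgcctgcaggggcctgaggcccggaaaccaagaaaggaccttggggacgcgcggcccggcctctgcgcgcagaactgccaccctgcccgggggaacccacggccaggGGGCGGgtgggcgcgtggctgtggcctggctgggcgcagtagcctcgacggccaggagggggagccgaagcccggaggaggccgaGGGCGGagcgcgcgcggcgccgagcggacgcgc

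The window of SLC25A1 held 8 GC boxes, some of them overlapping, and 1 CCAAT box, with a GC content of 81.6%. SLC25A20 had 3 GC boxes, SLC25A22 had 2, and SLC25A26 had 1 GC box and 2 E-boxes. None of the motifs occurred in the window of SLC25A11. Over all 35116 windows of this length in the table, 42.6% held a GC box, 32% a CCAAT box, 6.34% an E-box, 1.64% an NRF1 core and 3.44% an estrogen-related receptor motif. Among 36 expressed members with a window, 29 had a GC box, 20 a CCAAT box and 7 an E-box in at least 1 window, against 46.2%, 37% and 7.73% of all 27305 genes, a set that also holds noncoding genes. In the windows shown, no motif was present in both carriers that were higher in HCT116 oxpl-R and missing from all 3 that were lower. SLC25A26 and SLC25A22 had 3 and 4 annotated starts, and only 1 window of each gene was read for this.

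Per kilobase of the canonical transcript, the most abundant carriers of HCT116 control cells were the ADP/ATP carriers SLC25A6, at 581 CPM per kb, and SLC25A5, at 519 CPM per kb. They were followed by SLC25A39, needed for glutathione import, at 312, by the phosphate carrier SLC25A3 at 177 and by the citrate carrier SLC25A1 at 136 CPM per kb. The canonical transcript of SLC25A3 is 5984 bases long, while other annotated transcripts of this gene are much shorter. Its level per kilobase and its place in this order depend on this choice. Without scaling by length SLC25A3 was the highest member in HCT116 control, at 1038 to 1073 CPM. At the lower end of the expressed members, SLC25A41, SLC25A53, SLC25A34, SLC25A21 and SLC25A27 stayed below 5 CPM in every sample. Together the SLC25 genes summed to 4772 ± 109 CPM (SD, n = 3) in HCT116 control, 4524 ± 171 in HCT116 oxpl-R control, 4697 ± 366 in HCT116 oxaliplatin and 3964 ± 105 in HCT116 oxpl-R oxaliplatin.

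The comparison of HCT116 oxpl-R with HCT116 cells asked how the resistant line differs from its parent, and it could be made 4 times with no sample in common, in untreated, oxaliplatin, E1A and E1A + oxaliplatin cells. A pair of patterns held in all 4: the carnitine-acylcarnitine and S-adenosylmethionine carriers SLC25A20 and SLC25A26 were higher in HCT116 oxpl-R, and the citrate, oxoglutarate and glutamate carriers SLC25A1, SLC25A11 and SLC25A22 were lower. Thus 5 of 43 expressed members were called in the same direction in all 4 comparisons, where 9.79% of 13364 expressed genes were, 4.99% higher and 4.8% lower. At least 1 call was made for 27 of the 43, against 51% of expressed genes, 15 members higher and 12 lower with none called in both directions.

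SLC25A20 (chr3:48856926-48898904, minus strand) carries acylcarnitines into the matrix for fatty acid oxidation. Its level was 21.8, 27.1 and 27.5 CPM in the HCT116 control samples and 59.6, 71.3 and 74.2 CPM in the HCT116 oxpl-R control samples. After oxaliplatin it was 45, 47.6 and 22.5 CPM in HCT116 and 104, 103 and 120 CPM in HCT116 oxpl-R. With E1A the values were 27.6, 29.97 and 34.3 CPM against 68.7, 85.0 and 71.5 CPM, and with E1A + oxaliplatin 29.8, 48 and 45 CPM against 90.1, 94.9 and 111 CPM. In each condition all 3 HCT116 oxpl-R samples lay above all 3 HCT116 samples. The fitted log2FC was 1.42 ± 0.14 (SE) in untreated cells, 1.48 ± 0.27 with oxaliplatin, 1.26 ± 0.17 with E1A and 1.27 ± 0.23 with both, with adjusted p = 1.28e-05, 0.00238, 0.000265 and 0.0032 (edgeR), and each of these calls held in all 12 alternative analyses.

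SLC25A26 (chr3:66133610-66388116, plus strand) imports S-adenosylmethionine, the methyl donor of mitochondrial methylation reactions. It was measured at 32.9, 29.3 and 29.3 CPM in HCT116 control and at 45.4, 60.8 and 57.0 CPM in HCT116 oxpl-R control. Under oxaliplatin, HCT116 oxpl-R samples were at 55.8, 57.4 and 55.2 CPM, while HCT116 samples were at 36.5, 35.1 and 14 CPM, the lowest being replicate 3. The groups did not overlap in any condition, and log2FC was 0.83 ± 0.14, 0.96 ± 0.31, 0.95 ± 0.18 and 0.96 ± 0.28 in the order above, with adjusted p = 0.000857, 0.0459, 0.0026 and 0.0396 (edgeR). The call with oxaliplatin was lost without any of the 3 HCT116 oxpl-R samples, and that with E1A + oxaliplatin without HCT116 oxpl-R replicate 2 or 3, and these calls held in 7 and 8 of 12 alternatives, with log2FC of at least 0.61 and 0.67.

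SLC25A20 and SLC25A26 lie on chromosome 3 with SLC25A36, a pyrimidine nucleotide carrier, and SLC25A38, linked to glycine import for heme synthesis. The 766 expressed genes of chromosome 3 had a median log2FC of 0.44 between the untreated lines, against 0.01 over all expressed genes, and the 4 members had a median of 0.63. With oxaliplatin these medians were 0.62 and 1.06, with E1A 0.44 and 0.71, and with both 0.59 and 0.91. SLC25A20 and SLC25A26 were above the chromosome median in all 4 conditions, and the other members were not. SLC25A36 had log2FC of 0.37, 1.16, 0.47 and 0.86 in untreated, oxaliplatin, E1A and E1A + oxaliplatin cells, and was called with oxaliplatin only. SLC25A38 had 0.42, 0.33, 0.32 and 0.21, below the median of the chromosome in each condition, and was called in untreated cells only. The lower carriers SLC25A1, SLC25A11 and SLC25A22 lie on chromosomes 22, 17 and 11. Expressed genes of these chromosomes had median log2FC of −0.01, −0.13 and 0.10 between the untreated lines. How much of the differences goes with the copy number of chromosome 3 or of these chromosomes was not tested.

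SLC25A1 (chr22:19175581-19178739, minus strand) exports citrate, the source of cytosolic acetyl-CoA for fatty acid and sterol synthesis. HCT116 control samples had 204, 201 and 228 CPM and HCT116 oxpl-R control samples 127, 112 and 121 CPM. With oxaliplatin the values were 242, 213 and 253 CPM in HCT116 and 108, 86.8 and 94.8 CPM in HCT116 oxpl-R. Every HCT116 oxpl-R sample lay below every HCT116 sample of the same condition. Its log2FC was −0.82 ± 0.11 untreated, −1.31 ± 0.20 with oxaliplatin, −0.81 ± 0.18 with E1A and −0.95 ± 0.21 with E1A + oxaliplatin, with adjusted p = 0.000183, 0.000833, 0.00714 and 0.0105 (edgeR).

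SLC25A22, a glutamate carrier (chr11:790475-798281, minus strand), was at 74.1, 79.3 and 97.2 CPM in HCT116 control and at 46.5, 43.3 and 45.7 CPM in HCT116 oxpl-R control. In oxaliplatin it was at 116, 111 and 94.7 CPM in HCT116 and at 63.1, 46.7 and 33.1 CPM in HCT116 oxpl-R. These groups did not overlap, nor did those with E1A or E1A + oxaliplatin. The log2FC was −0.89 ± 0.13, −1.18 ± 0.25, −1.06 ± 0.19 and −0.91 ± 0.19 in the 4 conditions, with adjusted p = 0.000302, 0.00577, 0.00225 and 0.00714 (edgeR).

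SLC25A11 (chr17:4937130-4940053, minus strand) exchanges 2-oxoglutarate for malate in the malate-aspartate shuttle. Samples of HCT116 control had 88.0, 94.3 and 105 CPM, and samples of HCT116 oxpl-R control 60.2, 59.7 and 78.5 CPM. After oxaliplatin HCT116 reached 140, 136 and 108 CPM, while HCT116 oxpl-R had 63.0, 56.6 and 59.1 CPM. The lines were apart in every condition, with log2FC of −0.54 ± 0.13, −1.13 ± 0.20, −0.60 ± 0.16 and −0.86 ± 0.19 and adjusted p = 0.00996, 0.00199, 0.0171 and 0.00939 (edgeR). Without HCT116 oxpl-R E1A + oxaliplatin replicate 2, the E1A + oxaliplatin calls of SLC25A1, SLC25A11 and SLC25A22 were lost, with adjusted p = 0.0568, 0.0643 and 0.0521. The call of SLC25A11 was also lost in untreated cells without HCT116 control replicate 3, and in E1A cells without HCT116 E1A replicate 1 or 2.

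SLC25A10, which exchanges malate or succinate for phosphate, was lower in HCT116 oxpl-R in 3 of the 4 conditions. Untreated samples had 107, 112 and 117 CPM in HCT116 and 65.7, 70.8 and 83.9 CPM in HCT116 oxpl-R, and oxaliplatin samples 69.6, 66.1 and 59.5 CPM against 37.9, 32.5 and 38.3 CPM. The groups did not overlap in any condition. The log2FC was −0.61 ± 0.12, −0.87 ± 0.20 and −0.68 ± 0.16 in untreated, oxaliplatin and E1A cells, with adjusted p = 0.00234, 0.00783 and 0.00958, and −0.52 ± 0.21 with adjusted p = 0.12 in E1A + oxaliplatin cells (edgeR). Of the 3 calls, that in E1A cells was lost without HCT116 E1A replicate 1 or 2.

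**Figure D1:**
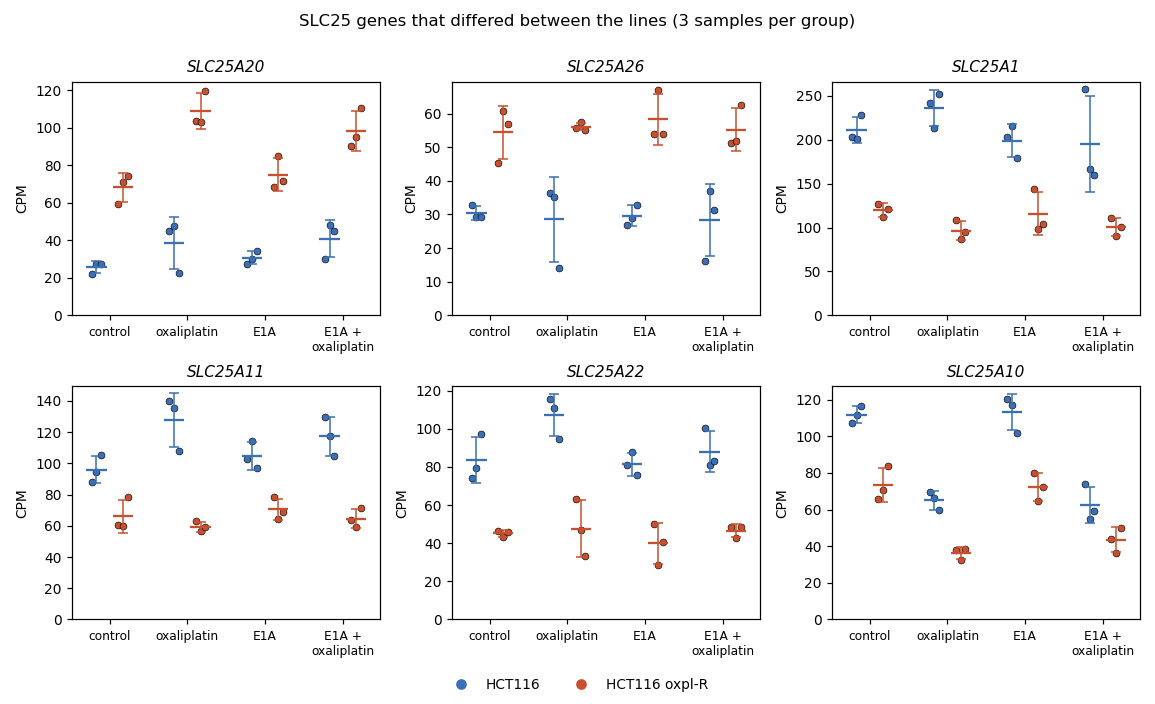
Level in CPM (y axis) of 6 carriers in the 4 conditions (x axis) with HCT116 samples in blue and those of HCT116 oxpl-R in red. Points are samples, 3 per group, with horizontal lines at the mean and bars of ± 1 SD; SLC25A20 and SLC25A26 lie higher in all HCT116 oxpl-R samples and SLC25A1, SLC25A11, SLC25A22 and SLC25A10 lower in all of them within each condition.

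In untreated cells, 18 of 47 tested members were called, 10 higher and 8 lower in HCT116 oxpl-R, where 24.1% of all tested genes and 34.4% of expressed genes were called. Of all tested genes 12.6% were higher and 11.5% lower. The share of the 43 expressed members, all 18 calls, thus lay near that of other expressed genes, and the median log2FC of expressed members was 0.12. The largest rises beside SLC25A20 and SLC25A26 were in SLC25A27, a relative of the uncoupling proteins also known as UCP4, at 1.44 ± 0.42 with adjusted p = 0.0244, and in SLC25A48 and SLC25A14, at 0.82 and 0.66. SLC25A27 was scarce, at 0.68, 0.591 and 0.773 CPM in HCT116 against 2.32, 1.18 and 2.08 CPM. Its groups did not overlap in untreated cells, but they did in the 3 other conditions, where log2FC was 0.99, 0.82 and 0.96 and the adjusted p (edgeR) 0.206, 0.308 and 0.161.

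SLC25A46, SLC25A17, SLC25A37, SLC25A43 and SLC25A38 were also higher, by 0.42 to 0.63 on the log2 scale. The remaining falls were in SLC25A33, a pyrimidine nucleotide carrier, SLC25A25, a calcium-regulated ATP-Mg/phosphate carrier, SLC25A39 and the ornithine carrier SLC25A15, with log2FC from −0.43 to −0.37. Of the 18 calls, 5 held in all 12 alternatives, namely those of SLC25A1, SLC25A10, SLC25A20, SLC25A22 and SLC25A26. The number called was 9 without HCT116 control replicate 1 and 7 without replicate 2 or replicate 3.

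With oxaliplatin in both lines, 19 of 46 tested members differed, 9 higher and 10 lower, against 21.5% of all tested and 30% of expressed genes. Over every tested gene these shares were 10.7% higher and 10.9% lower. SLC25A24, a calcium-regulated ATP-Mg/phosphate carrier, was at 21.3, 23.6 and 26.0 CPM in HCT116 oxaliplatin and at 56.8, 70.7 and 102 CPM in HCT116 oxpl-R oxaliplatin. SLC25A17, the peroxisomal carrier of coenzyme A and related cofactors, was at 15.5, 16.7 and 9.45 CPM against 35.2, 44 and 51.1 CPM. These were the 2 largest differences, with log2FC of 1.66 ± 0.24 and 1.62 ± 0.27, no overlap and adjusted p = 0.000604 and 0.00141 (edgeR).

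SLC25A36 and SLC25A14 were higher by 1.16 and 1.15, and SLC25A46, SLC25A30 and SLC25A40 by 1.06, 0.95 and 0.88, SLC25A46 with overlapping samples. On the lower side, SLC25A39 had 969, 838 and 791 CPM in HCT116 and 455, 343 and 307 CPM in HCT116 oxpl-R, without overlap. Its log2FC was −1.25 ± 0.23 with adjusted p = 0.00254 (edgeR). SLC25A45, SLC25A28, SLC25A25 and SLC25A29 were lower, with log2FC of −1.18, −0.97, −0.83 and −0.63. Of these 19 calls, 11 held in all 12 alternatives, 19 members were called without HCT116 oxaliplatin replicate 3, and 12 without HCT116 oxpl-R oxaliplatin replicate 3.

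In E1A cells, 7 of 46 tested members differed, 3 higher and 4 lower, against 15.9% of tested and 23.4% of expressed genes. Tested genes as a whole were higher in 8.44% and lower in 7.48%. Beside the 6 carriers described above, this was SLC25A34, an orphan carrier, at 0.36, 0.441 and 0.559 CPM in HCT116 and 2.68, 0.632 and 2.94 CPM in HCT116 oxpl-R. Its groups did not overlap, the log2FC was 2.15 ± 0.55 and the adjusted p 0.0171 (edgeR), but the call was lost without HCT116 E1A replicate 1. The number called was 4 without HCT116 E1A replicate 1, and 12 without HCT116 oxpl-R E1A replicate 1 or replicate 3.

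With E1A + oxaliplatin, 9 of 48 members differed, 4 higher and 5 lower, against 14.4% of tested and 20.6% of expressed genes. The shares of tested genes were 7.45% higher and 6.9% lower. SLC25A46, which acts in the dynamics of the outer membrane, was higher by 1.21 ± 0.32 and SLC25A24 by 0.98 ± 0.28, and SLC25A39 and SLC25A25 were lower, at −0.88 ± 0.19 and −0.75 ± 0.21. Their adjusted p was 0.0251, 0.0337, 0.00807 and 0.0333 (edgeR). Only the call of SLC25A20 held when HCT116 oxpl-R E1A + oxaliplatin replicate 2 was left out, while 11 members were called without HCT116 E1A + oxaliplatin replicate 1 and 14 without replicate 3.

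**Figure D2:**
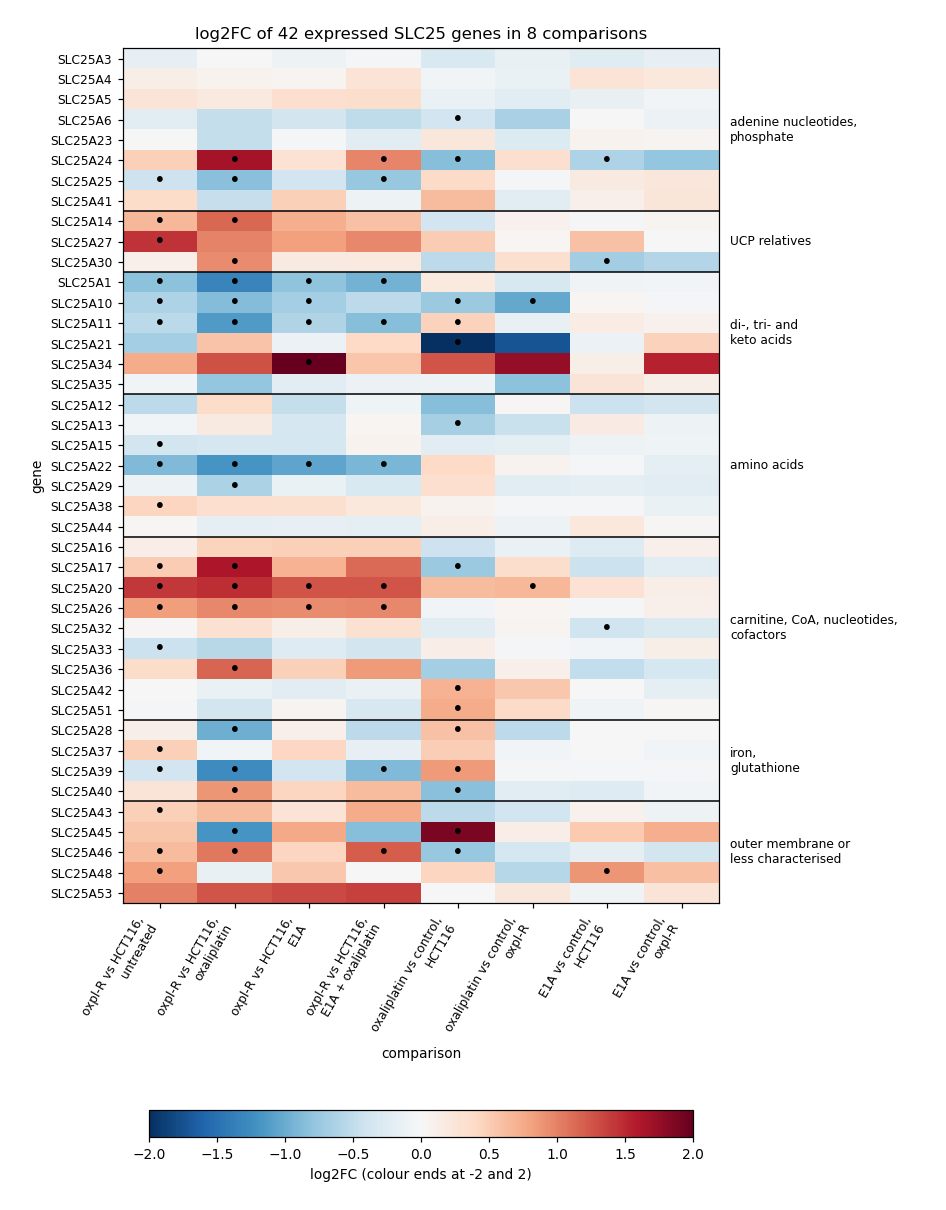
Fitted log2FC (colour, from −2 in blue to 2 in red, values beyond shown at the end colours) of 42 expressed SLC25 genes (rows, grouped by role) in 8 comparisons (columns). Dots mark adjusted p below 0.05 with edgeR's quasi-likelihood test; SLC25A20, SLC25A26, SLC25A1, SLC25A11 and SLC25A22 carry dots in all 4 columns that compare the lines.

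By role, calls in untreated cells are given beside the 12.6% of all tested genes that were higher and the 11.5% that were lower, as a description of small groups. The carriers of di-, tri- and keto acids held 3 lower calls among 6 tested members, and in E1A cells also 1 higher call, that of SLC25A34. The uncoupling protein relatives held 2 higher calls among 3, and the outer membrane or less characterised members 3 higher among 6. Carriers of carnitine, coenzyme A, nucleotides and cofactors held 3 higher and 1 lower among 11, those of amino acids 1 higher and 2 lower among 8, and those of iron and glutathione 1 higher and 1 lower among 4. Among 9 carriers of adenine nucleotides and phosphate, SLC25A25 was called lower, and the ADP/ATP and phosphate carriers that supply oxidative phosphorylation were called in none of the 4 comparisons of the lines. SLC25A3 was at 1038 to 1073 CPM in HCT116 control and at 885 to 1037 CPM in HCT116 oxpl-R control, without overlap, with log2FC of −0.16 ± 0.11 and adjusted p = 0.325 (edgeR). SLC25A4, the ADP/ATP carrier typical of muscle and heart, was at 54.4 to 60.3 CPM against 57.9 to 67.6 CPM, with overlap.

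SLC25A5 and SLC25A6, the more abundant ADP/ATP carriers in these cells, had opposite signs. SLC25A5 was at 708, 667 and 661 CPM in HCT116 control and 790, 803 and 838 CPM in HCT116 oxpl-R control, and SLC25A6 at 838, 795 and 895 CPM against 734, 712 and 716 CPM. Neither gene overlapped between the lines in any of the 4 conditions. The log2FC of SLC25A5 was 0.25, 0.19, 0.34 and 0.35 and that of SLC25A6 −0.23, −0.48, −0.37 and −0.51, with adjusted p from 0.0802 to 0.529 (edgeR), so none was called. Among the 43 expressed members, 12 did not overlap in all 4 conditions, where 20.4% of expressed genes did not.

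As a description, SLC25A6 made up 53.3% ± 2.0 (SD, n = 3) of the CPM of SLC25A4, SLC25A5 and SLC25A6 in HCT116 control and 45.2% ± 0.85 in HCT116 oxpl-R control. With oxaliplatin the share was 49% ± 1.3 and 37.6% ± 2.2, and with E1A + oxaliplatin 46.6% ± 4.1 and 32.7% ± 1.2. The 3 values of each HCT116 oxpl-R group lay below the 3 of the HCT116 group in these conditions and in E1A cells, where the shares were 55.4% ± 0.59 and 43.6% ± 4.9. This share was computed after its values were seen and was not tested.

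**Figure D3:**
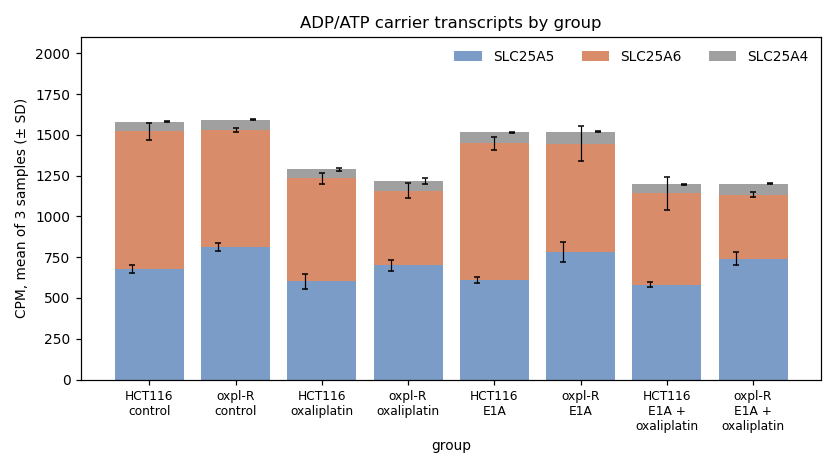
Stacked mean CPM (y axis) of the ADP/ATP carriers SLC25A5, SLC25A6 and SLC25A4 in the 8 groups (x axis), 3 samples each, with error bars of ± 1 SD for each gene drawn at the top of its segment. The segment of SLC25A6 is shorter in HCT116 oxpl-R than in HCT116 within every condition and shorter after oxaliplatin than without it in both lines.

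The comparison of oxaliplatin with control asked how each line responds to the drug. In HCT116 cells, 15 of 45 tested members changed, 7 higher and 8 lower, where 21.1% of tested and 29.7% of expressed genes did. Of all tested genes 11.8% rose and 9.27% fell. SLC25A21, which carries 2-oxoadipate and related acids of lysine and tryptophan breakdown, fell the most. It was at 3.43, 3.93 and 3.00 CPM in control and at 0.556, 0.289 and 0.431 CPM with oxaliplatin. The groups were far apart, with log2FC of −2.97 ± 0.38 and adjusted p = 0.00135 (edgeR).

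SLC25A10 fell from 107, 112 and 117 CPM to 69.6, 66.1 and 59.5 CPM, a log2FC of −0.74 ± 0.13. SLC25A24, SLC25A40, SLC25A46 and SLC25A17 fell by 0.85, 0.84, 0.76 and 0.75 on the log2 scale, and SLC25A13, an aspartate-glutamate carrier, and SLC25A6 by 0.66 and 0.38. None of these 8 genes overlapped between the groups. The adjusted p (edgeR) of SLC25A17 was 0.0497, and its call held in 5 of 12 alternatives.

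SLC25A39 rose from 479, 464 and 537 CPM to 969, 838 and 791 CPM, without overlap. Its log2FC was 0.85 ± 0.13, with adjusted p = 0.00238 (edgeR). SLC25A45, a scarce and less characterised carrier, showed the largest rise, from 1.95, 0.857 and 2.23 CPM to 4.90, 8.46 and 4.74 CPM, a log2FC of 1.88 ± 0.41. The NAD carrier SLC25A51, the coenzyme A carrier SLC25A42, the iron carrier SLC25A28 and SLC25A11 rose by 0.74, 0.70, 0.59 and 0.46. SLC25A3 was at −0.31 ± 0.11 and SLC25A4 and SLC25A5 at −0.05 and −0.13, with adjusted p (edgeR) of 0.0885, 0.84 and 0.464.

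Across settings, the calls of SLC25A10, SLC25A21 and SLC25A39 held in all 12 alternatives. The number of members called in HCT116 was 5 without HCT116 control replicate 1, 6 without control replicate 2 and 23 without HCT116 oxaliplatin replicate 3.

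In HCT116 oxpl-R cells, 2 of 47 tested members changed with oxaliplatin, 1 in each direction, where 4.28% of tested and 6.29% of expressed genes did. Rises made up 2.04% and falls 2.24% of tested genes. SLC25A10 fell from 65.7, 70.8 and 83.9 CPM to 37.9, 32.5 and 38.3 CPM, with log2FC of −1.02 ± 0.17, no overlap and adjusted p = 0.00597 (edgeR). SLC25A20 rose from 59.6, 71.3 and 74.2 CPM to 104, 103 and 120 CPM, with log2FC of 0.67 ± 0.17 and adjusted p = 0.0457, and its call held in 6 of 12 alternatives. In HCT116 its log2FC was 0.63 ± 0.26 with adjusted p = 0.126 and overlapping groups, and 0.84 with adjusted p = 0.000328 (edgeR), past the threshold, without HCT116 oxaliplatin replicate 3.

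SLC25A21 was at 2.32, 1.76 and 2.38 CPM in HCT116 oxpl-R control and 0.441, 0.538 and 0.977 CPM with oxaliplatin. The groups did not overlap and the log2FC was −1.72 ± 0.46, but the adjusted p was 0.0606 (edgeR), and SLC25A6, at −0.65 ± 0.17 with adjusted p = 0.0619, was likewise not called. The number called was 1 without HCT116 oxpl-R control replicate 1, 2 or 3 or oxaliplatin replicate 2, and 4 without oxaliplatin replicate 1.

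Whether the response differed between the lines was tested as an interaction term, the response in HCT116 oxpl-R minus that in HCT116. Of 47 tested members 4 differed, 2 in each direction, against 3.17% of tested and 4.94% of expressed genes. By direction these were 0.948% and 2.22% of tested genes. SLC25A24 went from 48.3, 46.9 and 36.5 CPM to 21.3, 23.6 and 26.0 CPM in HCT116 and from 67.4, 43.7 and 72.9 CPM to 56.8, 70.7 and 102 CPM in HCT116 oxpl-R. The difference in log2FC was 1.20 ± 0.31 with adjusted p = 0.0458 (edgeR), and that of SLC25A17 was 1.14 ± 0.30 with adjusted p = 0.0491.

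SLC25A28, also called mitoferrin-2, went from 41.5, 40.5 and 41.1 CPM to 66.3, 58.5 and 55.5 CPM in HCT116 and from 40.3, 43.8 and 49.8 CPM to 26.8, 34.3 and 32.2 CPM in HCT116 oxpl-R. It was therefore higher in every oxaliplatin sample of HCT116 and lower in every oxaliplatin sample of HCT116 oxpl-R than in the controls, with a difference of −1.07 ± 0.22 and adjusted p = 0.0142 (edgeR). In HCT116 oxpl-R the responses of these genes themselves, 0.35 for SLC25A17, 0.32 for SLC25A24 and −0.52 for SLC25A28, were not called.

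SLC25A45 and SLC25A39, the other large rises in HCT116, were at 0.13 ± 0.37 and −0.04 ± 0.20 in HCT116 oxpl-R. Their differences between the lines, −1.72 ± 0.56 and −0.85 ± 0.26, had adjusted p = 0.101 and 0.0804 (edgeR). For the difference, 6 members were called without HCT116 oxaliplatin replicate 3, and 0 without HCT116 control replicate 1 or 2 or HCT116 oxaliplatin replicate 1. It was 1 or 2 without HCT116 control replicate 3, HCT116 oxaliplatin replicate 2, any HCT116 oxpl-R control sample or HCT116 oxpl-R oxaliplatin replicate 3.

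**Figure D4:**
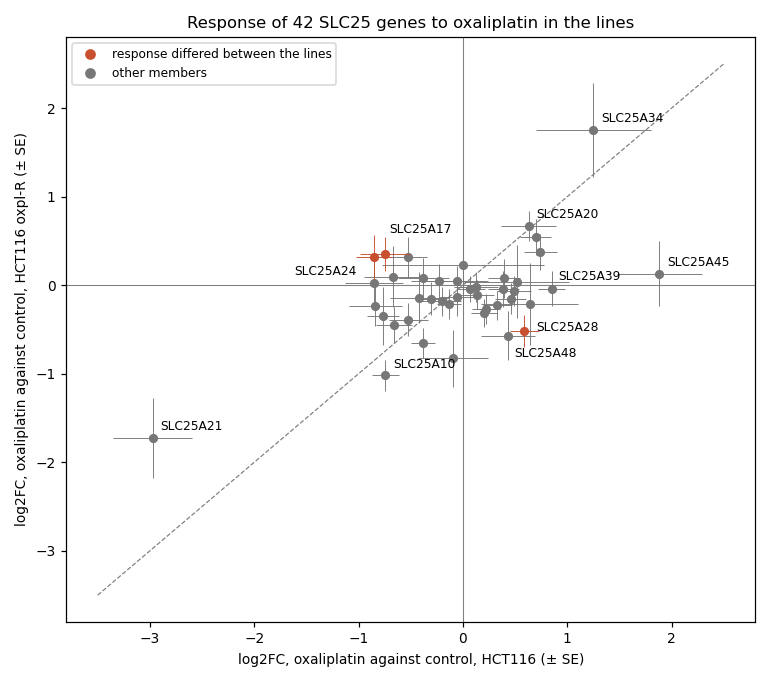
Log2FC of 42 expressed SLC25 genes with oxaliplatin against control in HCT116 (x axis) and in HCT116 oxpl-R (y axis), with bars of ± 1 SE and a dashed line where both are equal. SLC25A17 and SLC25A24 (red) lie left of 0 and above it, SLC25A28 (red) right of 0 and below it, and SLC25A21 and SLC25A10 lie below 0 in both lines.

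**Figure D5:**
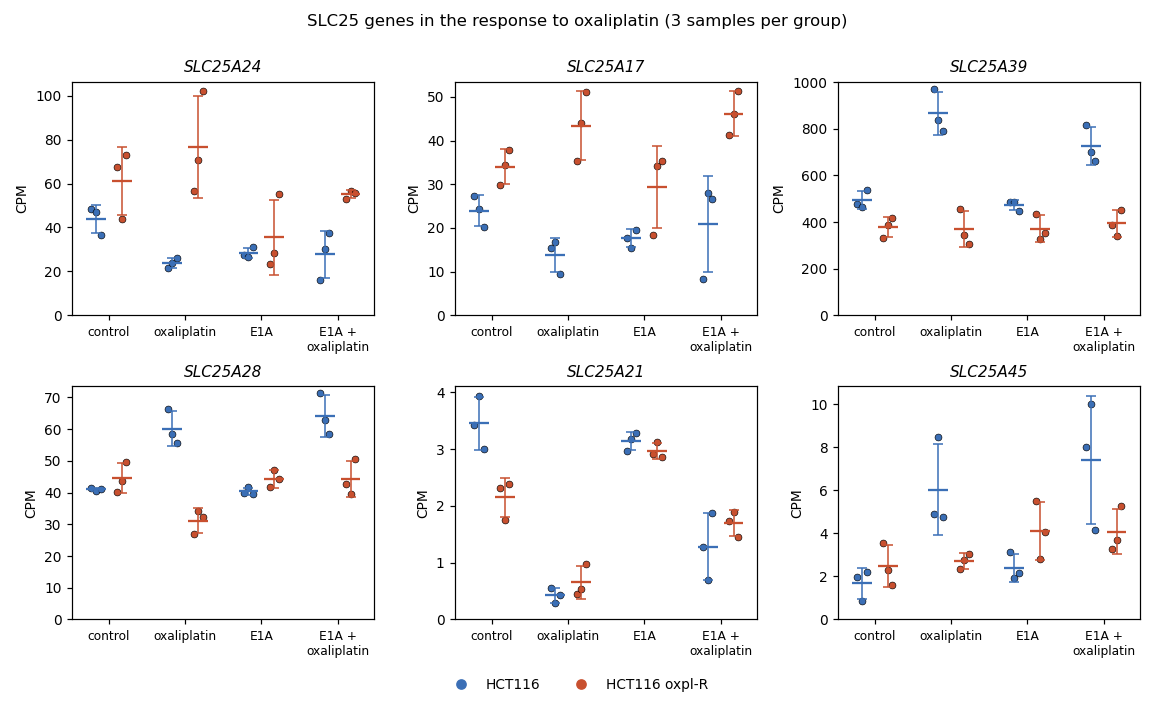
Level in CPM (y axis) of 6 carriers in the 4 conditions (x axis) with HCT116 samples in blue and those of HCT116 oxpl-R in red, with points for samples, 3 per group, horizontal lines at the mean and bars of ± 1 SD. SLC25A39 and SLC25A28 are higher in all oxaliplatin samples than in all control samples of HCT116 only, and SLC25A21 is lower in all oxaliplatin samples of both lines.

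Doxycycline alone moved few carriers. In HCT116, 4 of 46 tested members changed, 1 higher and 3 lower, where 5.22% of tested and 7.39% of expressed genes did. A rise was called for 1.74% and a fall for 3.47% of tested genes. SLC25A48 rose from 4.32, 3.55 and 5.07 CPM to 8.99, 6.94 and 7.53 CPM, and SLC25A30, a relative of the uncoupling proteins, fell from 33.4, 31.7 and 26.0 CPM to 17.1, 18.4 and 20.3 CPM. Their groups did not overlap, and their log2FC was 0.88 ± 0.21 and −0.69 ± 0.14, with adjusted p = 0.0185 and 0.00835 (edgeR). SLC25A24 and the folate carrier SLC25A32 fell by 0.62 and 0.40. No member was called without HCT116 control replicate 1, 1 without control replicate 2 and 2 without HCT116 E1A replicate 1, and none was called in the fit of all 24 samples or with the replicate number as a block.

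In HCT116 oxpl-R, edgeR called 0 of 47 tested members for E1A against control, 2 had an unadjusted p below 0.05, and DESeq2 and limma called 0, while 0.0593% of tested and 0.0898% of expressed genes were called. For E1A + oxaliplatin against oxaliplatin, edgeR, DESeq2 and limma also called 0 members in either line, with 1 in HCT116 and 6 in HCT116 oxpl-R at an unadjusted p below 0.05, against 0.0209% and 0.634% of tested genes and 0.0299% and 0.928% of expressed genes called. Without HCT116 oxaliplatin replicate 3 and HCT116 E1A + oxaliplatin replicate 1, left out after the data were seen, edgeR still called 0 members in HCT116, with 16 at an unadjusted p below 0.05, and 13 of 18435 tested genes. In HCT116 oxpl-R 0.598% of tested genes were called higher and 0.0355% lower. SLC25A21 was among those with an unadjusted p below 0.05 in both lines: with E1A + oxaliplatin it was at 1.28, 0.687 and 1.87 CPM in HCT116 and 1.73, 1.90 and 1.45 CPM in HCT116 oxpl-R, above all samples with oxaliplatin alone of the same line. Its log2FC was 1.61 ± 0.59 and 1.38 ± 0.49, with adjusted p = 0.984 and 0.338 (edgeR). The response to E1A was called as different between the lines for 0 members by edgeR, DESeq2 and limma, with 0 at an unadjusted p below 0.05 and 0.00466% of tested and 0.00748% of expressed genes called.

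Genes around the family were taken from lists, and 24.1% of all tested genes were called between the untreated lines and 21.1% for oxaliplatin in HCT116. Of expressed genes these shares were 34.4% and 29.7%. Between the untreated lines 12.6% of tested genes were higher and 11.5% lower, and with oxaliplatin in HCT116 11.8% rose and 9.27% fell. Of 16 genes for the import of carriers into the inner membrane, 18.8% were called in untreated HCT116 oxpl-R, 2 higher and 1 lower: TOMM7 and TIMM29 at 0.99 and 0.57, and TOMM40, the channel of the outer membrane, at −0.48. TOMM40 was lower in all 4 comparisons of the lines, at −1.45 with oxaliplatin, −0.54 with E1A and −0.96 with both. Acylglycerol kinase AGK, a subunit of the TIM22 complex, was higher in HCT116 oxpl-R with oxaliplatin, at 1.40, and fell with oxaliplatin in HCT116, at −1.02. The difference of its responses was 1.22 with adjusted p = 0.0252 (edgeR).

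Of 22 other mitochondrial transporters and carrier relatives, 27.3% were called in untreated HCT116 oxpl-R, 3 higher and 3 lower. The pyruvate carrier subunits differed in sign, with MPC1 at −0.55 and MPC2 at 0.37. Among 14 tested regulators of mitochondrial biogenesis, 5 were lower and none higher, a share of 35.7%. Of all tested genes 24.1% were called in either direction and 11.5% as lower. Those 5 were among 12 expressed regulators, where 34.4% of expressed genes were called in either direction. The transcription factor TFB2M had the lowest log2FC of the 5 regulators at −0.95. With oxaliplatin in HCT116, 2 of 13 tested regulators rose, among them the estrogen-related receptor ESRRA at 0.79, and 5 fell, among them TFAM at −1.21.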

How the data were processed

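RNA was sequenced from 8 groups of 3 samples, as paired reads of mRNA libraries. The authors trimmed reads with Trimmomatic, quantified transcripts with Salmon 1.6.0 and summarised them to genes with tximport. The deposited table is named TPM, but its columns sum to 28004261 to 42613322, so it was read as length-scaled estimated counts. How the authors scaled it is not given in the sources used here. A second deposited table of estimated counts lists 33113 genes and no SLC25 gene, and was used only to compare scales. The last row of each table was incomplete and was dropped.

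Values were rounded to whole numbers and fitted with edgeR 4.0.16 (R 4.3.3) by quasi-likelihood with TMM scaling and a trended dispersion, for the 6 samples of each comparison, or the 12 of an interaction. Genes above 0 in any sample were tested, with Benjamini-Hochberg adjustment over all of them at 0.05. Alternatives were DESeq2 1.42.0, its size factors, filterByExpr, limma 3.58.1 on log2(value + 1), 1 fit of all 24 samples, a block on the replicate number and leaving out each sample. Replicate numbers were checked for pairing by the correlation of deviations from group means. All 3 correlations passed 0.1 only for E1A + oxaliplatin against oxaliplatin in HCT116 oxpl-R (0.101, 0.163 and 0.346). There the block also called 0 members. For oxaliplatin against control in HCT116 oxpl-R the correlations were 0.0866, 0.384 and 0.437. Each oxaliplatin sample there correlated most with the control of its own number, as in no other comparison. The block called 5 members there in place of 2.

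Described in full were members called in the same direction in all 4 comparisons of the lines, those with the largest called changes or a called difference in response, and the ADP/ATP and phosphate carriers. The members and lists were chosen with earlier results of these data known. Gene positions are from GENCODE 44 on GRCh38, an earlier release than the authors used. Reads of near-identical pseudogenes can move between copies. Values of 1 member and of 1 listed gene are not reported here, though both are in the counts.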

Additional observations from a re-analysis of the deposited data

Results flagged for a closer look

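The response to oxaliplatin differed between the lines, by a test of the difference itself, for 3 SLC25 genes described here. The log2FC in HCT116 oxpl-R minus that in HCT116 was 1.14 for SLC25A17, 1.20 for SLC25A24 and −1.07 for SLC25A28. Their calls held in 3, 8 and 15 of 18 alternatives.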

How the results depend on the processing

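No called difference of a member reversed in any alternative: of 960 values, 738 stayed past the threshold and 222 did not. With all 24 samples in 1 fit, 8 members were called between untreated lines, 14 between E1A + oxaliplatin lines, 5 for oxaliplatin in HCT116 oxpl-R, 0 for E1A in HCT116, 2 for E1A + oxaliplatin against oxaliplatin in HCT116 oxpl-R and 2 for the difference in oxaliplatin response. With the replicate block these numbers were 11 between untreated lines and 8 and 5 for oxaliplatin in HCT116 and HCT116 oxpl-R. They were 0 for E1A in HCT116 and 1 for the difference in response. The labels give replicate numbers but do not say whether samples of equal number belong together. DESeq2 called 5 for oxaliplatin in HCT116 oxpl-R and 7 for the difference in response, limma 1 for E1A in HCT116 and 2 for the difference in response, and filterByExpr left 2 for E1A in HCT116. The cause was not tested.

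Leaving out 1 sample gave 7 to 19 members between untreated lines, 12 to 19 with oxaliplatin, 4 to 12 with E1A and 1 to 14 with E1A + oxaliplatin. It gave 5 to 23 for oxaliplatin in HCT116, 1 to 4 in HCT116 oxpl-R, 0 to 6 for E1A in HCT116 and 0 to 6 for the difference in response. The lone pair left in such a group was assumed to vary like the others. With 3 samples a group, differences near the threshold come and go with single samples, and scarce carriers such as SLC25A27 and SLC25A34 rest on few reads.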
